A study of Homo sapiens with 8 samples.

Results

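The genes described here are those of the sarcomere and of skeletal muscle differentiation: myosins and their partners, actins, troponins, Z-disc proteins, calcium channels and pumps, subunits of the muscle acetylcholine receptor and muscle isoforms of energy enzymes. They were taken from a list of 53 symbols, of which 46 are among the 22808 symbols of the count table. MYH7, MYL2, MYL3, MYBPC1, CASQ1, CASQ2 and CACNG1 were not analysed here. They were measured in RD18, a human fusion-negative rhabdomyosarcoma line (a tumour of the muscle lineage without a PAX-FOXO1 fusion). The vehicle group holds 4 RD18 libraries from cells given lipofectamine, a lipid transfection reagent, and the microRNA group holds 4 RD18 libraries from cells transfected with miR-449a and miR-340-5p. RNA of both groups dates from 60 h. All 8 libraries come from this line. The labels name no control RNA for the vehicle group, so the effects of this microRNA pair and of transfected RNA as such cannot be told apart.

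The transfected microRNAs have the mature sequences below (RefSeq, GRCh38.p14), with the seed, bases 2 to 8, in capitals. The seed is the part of a microRNA that pairs with sites in the 3′ UTR of its target mRNAs. The 2 seeds differ, so each was searched for on its own.
miR-449a: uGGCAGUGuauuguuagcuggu
miR-340-5p: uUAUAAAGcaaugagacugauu

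A sarcomere is built from thick filaments of myosin, which pull on thin filaments of actin anchored at the Z disc. Troponin and tropomyosin on the thin filament open it to myosin when calcium is released from the sarcoplasmic reticulum, and that release follows a signal from acetylcholine receptors at the cell surface. Myoblasts switch these genes on late, under MYOD1, myogenin and MEF2 factors, and rhabdomyosarcoma cells express part of the programme while they keep dividing. Many members belong to families with slow, fast, embryonic and heart isoforms.

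Libraries held 2567737 to 5569342 counts. The cells had the markers of their lineage: DES, the muscle intermediate filament, averaged 108 CPM (counts scaled to a common library size) in vehicle libraries, and MYOD1 averaged 204 CPM. Smooth muscle markers summed to 207 to 230 CPM in vehicle and 248 to 288 CPM in microRNA libraries over the 8 of 10 genes in the table, with DES and SYNPO2, which skeletal muscle also expresses, holding most of it. Of the 6 tested, 4 were higher and 2 lower. CNN1, smooth muscle calponin, went from 0.599 to 10.3 CPM and had enough counts for a test only through microRNA libraries. The defining gene MYH11 averaged 0 CPM in vehicle and 0.130 CPM in microRNA libraries. Heart markers summed to 7.54 to 15.5 CPM in vehicle and 5.85 to 8.70 CPM in microRNA libraries over 4 of 10 genes. TNNI3 averaged 4.03 and 3.54 CPM and did not pass (adjusted p = 0.799, edgeR). NKX2-5 averaged 6.41 and 3.44 CPM and was lower (adjusted p = 0.0123, edgeR), with overlapping groups and no call without vehicle library 3. HAND2 averaged 0.964 and 0.0444 CPM, and RYR2 0.188 and 0.161 CPM. The part of these markers in the results was not tested.

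Most muscle genes with enough counts were lower in the cells given the microRNAs. Of the 46 members in the table, 29 reached the count minimum and were tested. Of these, 26 fell, 2 rose and 1 did not pass (edgeR quasi-likelihood test, Benjamini-Hochberg adjusted p under 0.05 over all tested genes). MYL4, MYH8, MYBPC2 and MYBPH reached the count minimum only through vehicle libraries, with microRNA means of 0.218, 0.434, 0.970 and 1.49 CPM. MYOZ2 reached it only through microRNA libraries, with a vehicle mean of 2.21 CPM. Each was tested only because of the group where it was high, so its call is no independent support. Over all 12366 tested genes, 67.3% were called, 34.0% as lower and 33.4% as higher. The median log2 fold change was -1.40 over the tested members and -0.00067 over all tested genes. Falls of at least 2-fold were called for 18 members and a rise of at least 2-fold for 1, against 13.1% and 12.5% of all tested genes. In 26 members every microRNA library lay below every vehicle library, and in 2 every one lay above, where 29.7% and 29.2% of all tested genes did so. The members' counts were 0.402% to 0.459% of all counts in vehicle and 0.251% to 0.267% in microRNA libraries. In bulk RNA, fewer cells expressing a gene and less RNA per cell cannot be told apart.

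**Figure D1:**
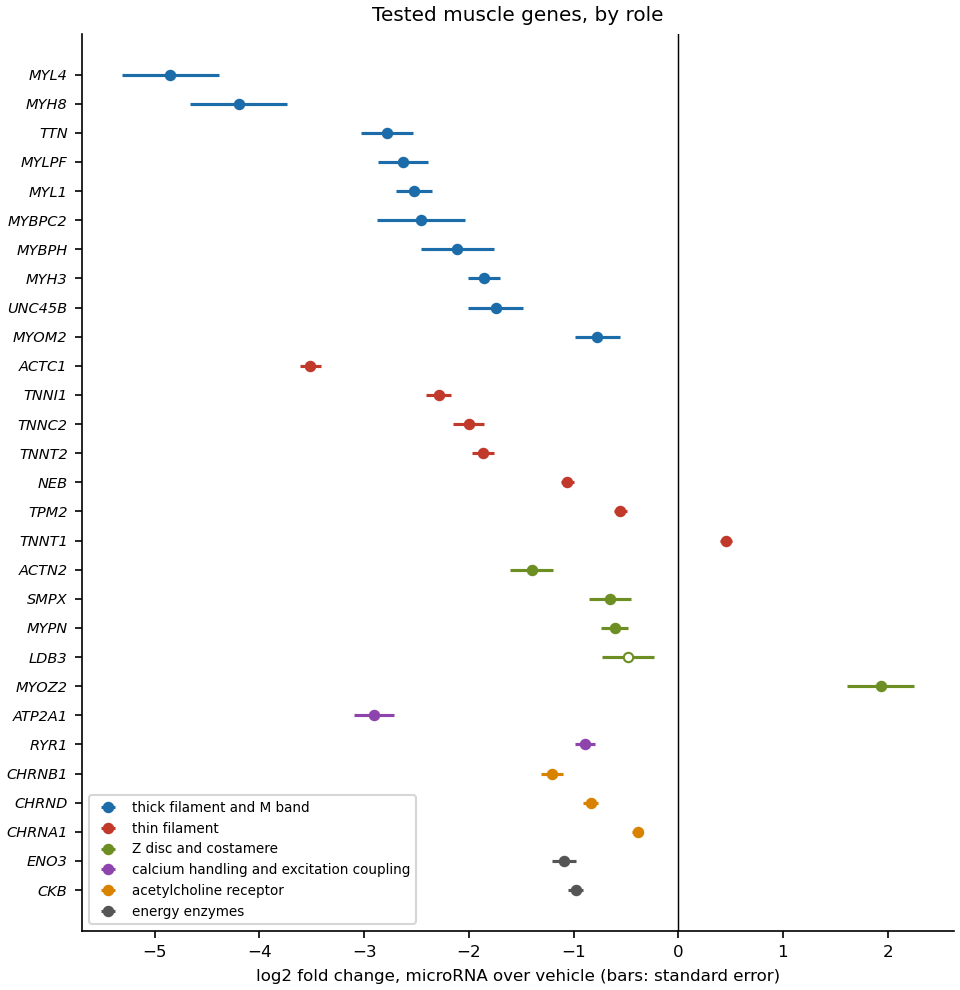
Log2 fold changes (microRNA over vehicle, x axis) of the 29 tested members, one row each, coloured by role, with bars of 1 standard error and an open circle for the gene that did not pass. Values run from -4.85 for MYL4 to 1.93 for MYOZ2, and TNNT1 and MYOZ2 are the only tested members to the right of 0.

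Thick-filament and M-band genes had the lowest median of the roles with at least 3 tested members, -2.49 on the log2 scale. All 10 tested members of this role fell, 9 of them at least 2-fold. MYL4, MYH8, MYBPC2 and MYBPH, tested only because of their vehicle levels, are among them. The median and these counts therefore rest partly on genes whose calls are no independent support. MYH3, the embryonic myosin heavy chain, measured 45.6, 52.8, 38.0 and 36.2 CPM in vehicle libraries 1 to 4 and 14.6, 12.6, 10.3 and 7.72 CPM in microRNA libraries 1 to 4. The groups did not overlap, and MYH3 was 3.63-fold lower (log2 fold change -1.86, SE 0.15, adjusted p = 4.68e-16). MYH8, the perinatal heavy chain, fell further, from 115 to 7 counts summed over the 4 libraries of a group, 18.4-fold lower in the fit (adjusted p = 8.74e-12). Both lie in the myosin cluster of chromosome 17 (GRCh38), MYH3 at 10628526 to 10657309 and MYH8 at 10390322 to 10421950, on the minus strand. The adult fast genes of the same cluster, MYH1 and MYH2, held 2 and 9 counts in all 8 libraries together.

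The fast light chains were among the most abundant thick-filament genes. MYL1, the fast essential light chain, measured 248, 249, 189 and 175 CPM in vehicle and 47.2, 34.8, 33.7 and 29.3 CPM in microRNA libraries. It was 5.75-fold lower (log2 fold change -2.52, SE 0.17, adjusted p = 5.97e-07). MYLPF, the fast regulatory light chain, measured 209, 222, 152 and 136 CPM in vehicle and 33.4, 33.3, 23.4 and 20.6 CPM in microRNA libraries, 6.17-fold lower (adjusted p = 3.99e-05). For both genes, vehicle libraries 1 and 2 were higher than 3 and 4, a spread smaller than the gap to the microRNA libraries. MYL4, the light chain of embryonic muscle and the atria, went from 133 to 5 counts and had the largest fitted fall of all tested members, 28.9-fold (log2 fold change -4.85, adjusted p = 5.07e-14). Of those 5 counts, 3 came from microRNA library 1, and without it the log2 fold change was -5.50.

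RNAs of proteins that hold or assemble the thick filament were lower as well. TTN, the giant elastic protein that spans from Z disc to M band, fell from 224 ± 50.1 to 31.8 ± 9.01 CPM (SD, n = 4), 6.87-fold (adjusted p = 4.80e-05, edgeR). UNC45B, the myosin chaperone, measured 8.79, 13.2, 10.8 and 15.8 CPM in vehicle and 2.49, 3.41, 3.79 and 5.79 CPM in microRNA libraries, and fell 3.35-fold (adjusted p = 4.14e-08). Unlike the light chains, UNC45B was highest in vehicle library 4 and lowest in library 1. The myosin-binding genes MYBPC2 and MYBPH fell 5.49-fold and 4.32-fold from means of 4.91 and 6.38 CPM. MYOM2, an M-band crosslinker, had the smallest fall of the role, 1.71-fold (adjusted p = 0.00145). TTN, with 3186 counts in vehicle and 570 in microRNA libraries, overlaps 3 genes: on the other strand TTN-AS1 with 58 and 81 and AC009948.5 with 141 and 267, and on the same strand CCDC141 with 69 and 106. Whether reads were shared was not tested.

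Thin-filament genes split: 6 of 7 tested members fell and 1 rose, with a median of -1.86. ACTC1, the actin of heart and embryonic skeletal muscle, measured 568, 512, 435 and 427 CPM in vehicle and 49.4, 43.5, 36.5 and 36.0 CPM in microRNA libraries. The lowest vehicle library was far above the highest microRNA library, and the fall was 11.4-fold (log2 fold change -3.51, SE 0.10, adjusted p = 1.87e-18). ACTA1, the actin of adult skeletal muscle, stayed under the count minimum at 41 and 7 counts, a ratio 6.98-fold lower with a 95% counting interval of 3.10 to 18.4. Without microRNA library 2 it was 10.8-fold lower. ACTC1 made up 99.4% ± 0.193 of the counts of these 2 genes in vehicle and 99.3% ± 0.779 in microRNA libraries (SD, n = 4). The 2 actins have similar coding sequences, so reads may be divided between them.

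NEB, nebulin, the ruler of the thin filament, measured 585, 507, 479 and 442 CPM in vehicle and 251, 228, 245 and 240 CPM in microRNA libraries, and fell 2.08-fold (adjusted p = 1.62e-21). TPM2, beta-tropomyosin, changed least of the thin-filament genes that fell, from 353 ± 39.2 to 241 ± 9.82 CPM (SD, n = 4), 1.47-fold (adjusted p = 4.62e-11, edgeR). The NEB gene overlaps RIF1 on the other strand, which held 4536 counts in vehicle and 4567 in microRNA libraries.

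Among the troponin subunits, 3 fell and 1 rose. TNNI1, slow troponin I, the inhibitory subunit, measured 105, 108, 94.5 and 87.2 CPM in vehicle and 27.0, 17.7, 17.9 and 15.8 CPM in microRNA libraries, 4.88-fold lower (adjusted p = 3.51e-24). TNNC2, fast troponin C, the calcium sensor, fell 4.01-fold from 57.1 ± 10.6 CPM (SD, n = 4). TNNT2, the troponin T of heart and embryonic muscle, measured 152, 116, 136 and 119 CPM in vehicle and 42.4, 27.5, 41.7 and 32.5 CPM in microRNA libraries, 3.64-fold lower (adjusted p = 4.43e-20). TNNT1, slow troponin T, went the other way, with 524, 537, 496 and 512 CPM in vehicle and 763, 710, 718 and 640 CPM in microRNA libraries. It rose 1.37-fold (log2 fold change 0.45, SE 0.06, adjusted p = 1.22e-10), and every microRNA library was above every vehicle library. TNNT1 lies on chromosome 19 at 55132794 to 55149354 and TNNT2 on chromosome 1 at 201359008 to 201377762, both on the minus strand.

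TNNT1 took 79.7% ± 2.29 of the counts of the 3 troponin T genes in vehicle and 95.2% ± 0.779 in microRNA libraries (SD, n = 4). This share was computed after the values had been seen and is a description. The fast isoforms held few counts: TNNI2 had 32 in vehicle and 5 in microRNA libraries, and TNNT3 had 9 and 2, a ratio 5.36-fold lower (counting interval 1.11 to 51). Vehicle library 1 held 6 of the 9, and without it the TNNT3 ratio was 2.14-fold lower with an interval that includes 1. TNNC1, the troponin C of slow muscle and heart, had 15 and 3, a ratio 5.96-fold lower (1.69 to 32.1). TNNI1 made up 97.9% ± 1.23 and 98.1% ± 1.51 of the counts of TNNI1 and TNNI2, a difference smaller than either SD.

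**Figure D2:**
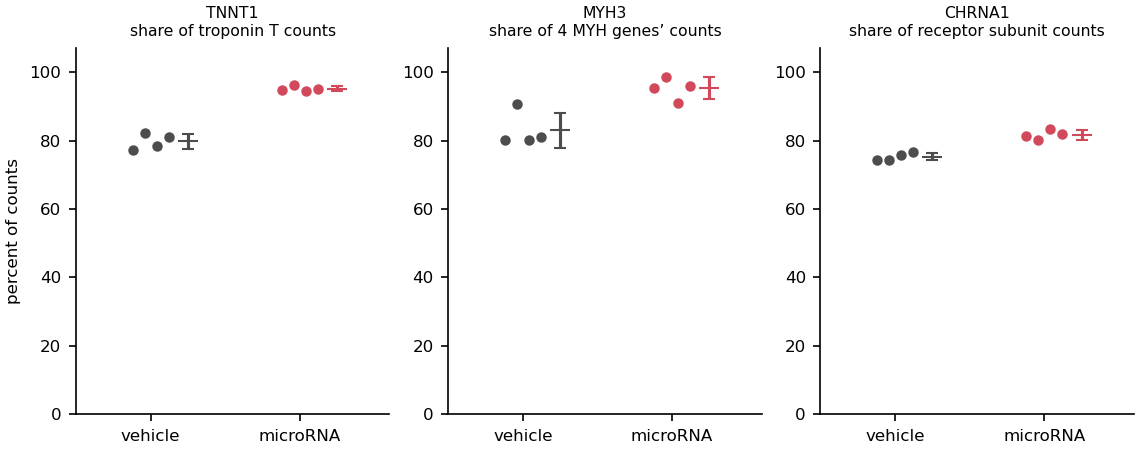
Share of counts (y axis, percent) that TNNT1 takes of the 3 troponin T genes, MYH3 of MYH1, MYH2, MYH3 and MYH8, and CHRNA1 of the 4 receptor subunits, one point per library with mean and SD over 4 libraries. The TNNT1 share runs from 77.3% to 82.2% in vehicle and from 94.5% to 96.3% in microRNA libraries.

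Z-disc and costamere genes had smaller changes and the second rise. Of 5 tested, 3 fell, 1 rose and 1 missed the threshold. Their median was -0.61. MYOZ2, calsarcin-1, which binds calcineurin and alpha-actinin at the Z disc of slow muscle and heart, measured 2.51, 1.81, 2.25 and 2.26 CPM in vehicle and 8.88, 6.31, 6.54 and 12.6 CPM in microRNA libraries. It rose 3.82-fold (log2 fold change 1.93, SE 0.32, adjusted p = 3.78e-07) without overlap, from a low level of 32 counts over all vehicle libraries. MYOZ2 lies on chromosome 4 at 119135784 to 119187789, plus strand. Its fast-muscle relative MYOZ1 held 17 counts in vehicle and 5 in microRNA libraries, a ratio 4.05-fold lower (counting interval 1.44 to 14.1), which included 1 without microRNA library 1.

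ACTN2, the alpha-actinin that crosslinks actin at the Z disc, measured 23.4, 20.7, 16.2 and 15.3 CPM in vehicle and 8.34, 4.95, 7.23 and 8.05 CPM in microRNA libraries, 2.64-fold lower (adjusted p = 1.99e-08). MYPN, myopalladin, which ties nebulin and titin to the Z disc, fell 1.52-fold, from 38.1, 42.2, 36.6 and 30.6 CPM to 22.2, 24.6, 25.1 and 25.4 CPM (adjusted p = 3.81e-05). SMPX, a small protein of the costamere, measured 14.6, 15, 12.8 and 11.3 CPM in vehicle and 9.05, 7.68, 9.30 and 8.05 CPM in microRNA libraries, 1.57-fold lower (adjusted p = 0.00371). Neither MYPN nor SMPX overlapped between groups.

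LDB3, also called ZASP or Cypher, measured 17.2, 9.84, 7.86 and 7.03 CPM in vehicle and 6.04, 6.99, 10.3 and 5.79 CPM in microRNA libraries. The groups overlapped, and LDB3 did not pass (log2 fold change -0.48, SE 0.25, adjusted p = 0.0833). Over the 15 alternatives its adjusted p ran from 0.0262 to 0.475. It passed as lower without vehicle library 3 (0.0451) or 4 (0.0336) or microRNA library 3 (0.0262), and its log2 fold change was -0.21 without vehicle library 1.

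**Figure D3:**
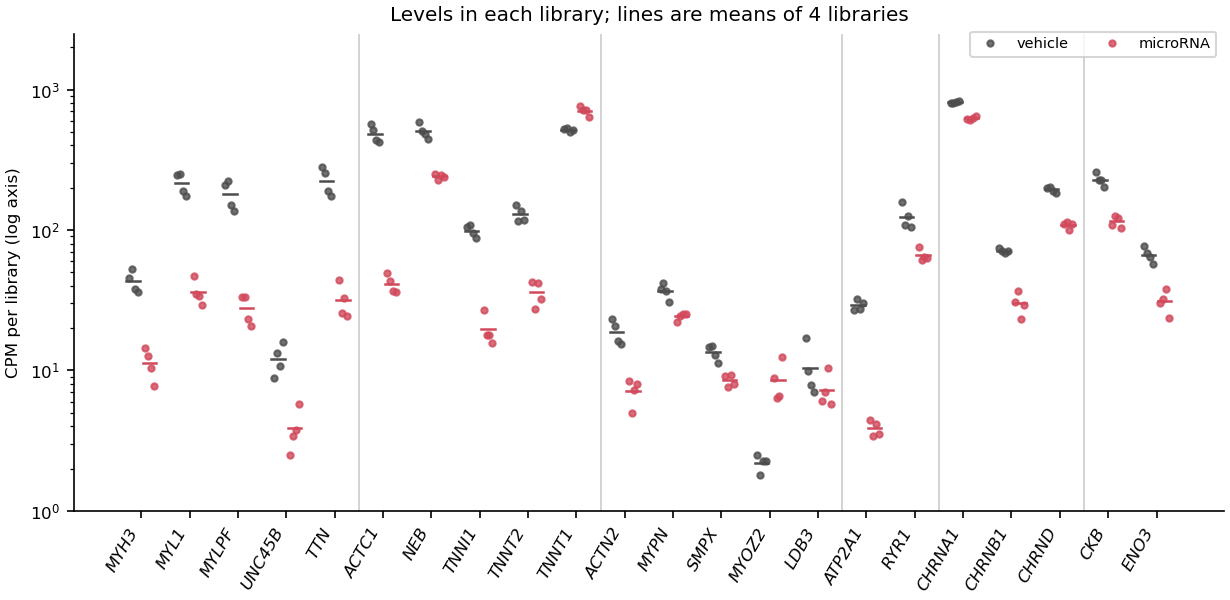
CPM in each library (y axis, log scale) of 22 members, ordered by role with grey lines between roles, one point per library and a line at the mean of 4 libraries. ACTC1 falls from between 427 and 568 to between 36.0 and 49.4 CPM, TNNT1 and MYOZ2 rise, and LDB3 overlaps between groups.

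Among calcium-handling genes only ATP2A1 and RYR1 had enough counts to be tested, and both fell. ATP2A1, the fast-muscle calcium pump that refills the sarcoplasmic reticulum, measured 26.8, 32.4, 27.2 and 30.4 CPM in vehicle and 4.44, 3.41, 4.13 and 3.54 CPM in microRNA libraries, 7.49-fold lower (log2 fold change -2.90, SE 0.19, adjusted p = 2.27e-20). ATP2A2, the pump gene of slow muscle, heart and many other tissues, measured 293 CPM in vehicle and 302 CPM in microRNA libraries and did not pass (adjusted p = 0.613), but passed as higher with library size as the only scaling (log2 fold change 0.17, adjusted p = 0.0143). RYR1, the calcium release channel, measured 159, 109, 126 and 106 CPM in vehicle and 75.6, 61.1, 64.7 and 63.1 CPM in microRNA libraries, 1.86-fold lower (adjusted p = 5.94e-11). Its groups did not overlap, although vehicle library 1 stood above the others. Of the rest, CAV3, muscle caveolin, went from 19 to 2 counts, a ratio 11.3-fold lower (counting interval 2.73 to 100.3), or 7.53-fold lower without microRNA library 2. Both microRNA counts of CAV3 came from library 4. TRDN, triadin, went from 11 to 6 counts. CACNA1S, the voltage sensor, had 5 counts in vehicle and none in microRNA libraries. The upper counting limit of the CACNA1S ratio was 0.915, and it was above 1 when any of 7 of the 8 libraries was left out. ATP2A1 shares bases with the antisense gene ATP2A1-AS1, which held 77 and 69 counts against 431 and 68 for ATP2A1.

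Acetylcholine receptor subunits summed to 1073 to 1092 CPM in vehicle and 755 to 785 CPM in microRNA libraries. All 3 tested subunits fell, with a median of -0.84, and 1 of them fell at least 2-fold. CHRNA1, the ligand-binding alpha subunit, measured 797, 807, 817 and 836 CPM in vehicle and 613, 609, 630 and 644 CPM in microRNA libraries, 1.31-fold lower (log2 fold change -0.39, SE 0.05, adjusted p = 2.35e-09). CHRND, the delta subunit, measured 201, 204, 191 and 183 CPM in vehicle and 110, 113, 99.8 and 110 CPM in microRNA libraries, 1.79-fold lower (adjusted p = 3.30e-16). CHRNB1, the beta subunit, fell most, 2.31-fold, from 74.0, 71.2, 68.0 and 71.3 CPM to 30.5, 36.8, 23.4 and 29.3 CPM (adjusted p = 5.12e-15). CHRNG, the fetal gamma subunit, held 27 counts in vehicle and 24 in microRNA libraries, with a counting interval of the ratio of 0.412 to 1.34 that includes 1. CHRND and CHRNG are neighbours on chromosome 2, at 232525993 to 232536667 and 232539727 to 232546403, both on the plus strand. The share of CHRNA1 among the counts of the 4 subunits was 75.3% ± 1.08 in vehicle and 81.7% ± 1.41 in microRNA libraries (SD, n = 4).

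The energy enzymes that were tested fell by similar amounts. CKB, the brain-type creatine kinase that precedes the muscle form in myoblasts, measured 258, 226, 228 and 202 CPM in vehicle and 109, 127, 122 and 104 CPM in microRNA libraries, 1.97-fold lower (adjusted p = 5.24e-18). ENO3, muscle enolase, measured 76.6, 68.9, 64.0 and 57.0 CPM in vehicle and 30.2, 32.4, 37.9 and 23.5 CPM in microRNA libraries, 2.13-fold lower (adjusted p = 1.25e-12). ENO3 shares bases with PFN1 on the other strand, whose counts went from 7821 to 2380, and whether reads were shared was not tested. CKM, muscle creatine kinase, was uneven in vehicle, at 11.7, 9.84, 3.59 and 2.26 CPM, and held 1.24, 0, 0.689 and 1.93 CPM in microRNA libraries. It did not reach the count minimum, and its summed counts of 91 and 15 gave a ratio 7.23-fold lower (counting interval 4.16 to 13.4), or 4.81-fold lower (2.77 to 8.95) without microRNA library 2.

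The 17 members under the count minimum held 380 counts in vehicle and 143 in microRNA libraries in all. For 12 of them the counting interval of the ratio lay below 1, for 4 it included 1 and for 1, CSRP3, it lay above. These intervals cover counting error only, not the spread between libraries, and the share of all genes with such intervals is not given here. When each library was left out in turn, 6 of the 12 kept an interval below 1 (ACTA1, TNNC1, TNNI2, XIRP1, CAV3 and CKM), and the other 6 had one that included 1 without at least 1 library. With no count filter, edgeR called 8 of the 17 lower, where it called 4386 of all 22808 genes lower and 4679 higher. CSRP3, muscle LIM protein, a Z-disc sensor of slow muscle and heart, went from 12 to 30 counts, 2.10-fold higher (interval 1.04 to 4.5). Its groups overlapped, the interval included 1 when any of 4 libraries (vehicle 3 or 4, microRNA 1 or 2) was left out, and edgeR with no count filter did not call it (adjusted p = 0.201). MYH2 had 9 counts and none, with an upper counting limit of the ratio of 0.425. Of the 9, 6 came from vehicle library 4, and without it the limit was 1.48. MYOM3 had 16 and 5, a ratio 3.81-fold lower, but 12.9-fold lower without microRNA library 1, and its interval included 1 without vehicle library 3. ACTN3 had 34 and 15, with an interval that included 1 without vehicle library 2, and XIRP1 had 32 and 10. MYOM1, the M-band protein myomesin, held 10 and 12 counts, a ratio of 1.01 (0.399 to 2.6), or 1.75 (0.531 to 7.46) without vehicle library 3. All its microRNA counts came from libraries 1 and 2. The MYOM1 ratio was 0.742 without microRNA library 1 and 0.757 without microRNA library 2. MYH1 was seen only as 2 counts in microRNA libraries, with an interval that includes 1.

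Fixed pairs of isoforms were compared within each library as a log2 ratio with 0.5 CPM added to each gene. The added value matters where a gene is near it, as MYL4 and MYH8 are in microRNA libraries. Of 10 pairs, 2 had both genes tested. The MYH3 to MYH8 ratio was 2.39 ± 0.623 in vehicle and 3.75 ± 0.646 in microRNA libraries on the log2 scale (SD, n = 4, exact two-sided permutation p = 0.0571, adjusted 0.0571). The MYL4 to MYL1 ratio was -4.5 ± 0.273 and -5.73 ± 0.325 (exact permutation p = 0.0286, adjusted 0.0571), where 0.0286 is the smallest p that 4 against 4 libraries allow. Neither passed after adjustment over the 2 pairs. Beside a p of 0.0571 for the other pair, even the smallest possible p becomes 0.0571, so the MYL4 to MYL1 ratio could not pass. Both ratios rest on the low counts of MYH8 and MYL4 in microRNA libraries. These 2 genes reached the count minimum only through vehicle libraries, so neither pair gives independent support. With 2 CPM added, the MYL4 to MYL1 difference changed sign.

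Libraries of a group differed from each other in the muscle genes. Among the vehicle libraries, number 1 was highest in 15 and number 2 in 10 of the 29 tested members, and number 4 was lowest in 20. Among the microRNA libraries, number 1 was highest in 13 and number 3 in 9, and number 4 was lowest in 13 and number 2 in 10. The members' summed level ran from 4078 to 4931 CPM in vehicle and from 2355 to 2580 CPM in microRNA libraries, so the groups stayed apart. The largest relative spreads belonged to genes with few counts, such as MYL4 with a coefficient of variation of 121% in microRNA libraries, and the median was 13% in vehicle and 20.2% in microRNA libraries.

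Levels of different genes were compared per kilobase of annotated exon (GENCODE 29). On this scale TNNT1 was the highest member in both groups, at 238 ± 8.02 and 326 ± 23.4 CPM per kb (SD, n = 4), followed by CHRNA1 at 168 ± 3.40 and 129 ± 3.30. MYLPF and MYL1 came next in vehicle, at 160 ± 37.8 and 160 ± 29 CPM per kb, and these 2 do not differ beyond their spread from each other or from CHRNA1. ACTC1 ranked 6 in vehicle at 106 ± 14.6 and 9 in microRNA libraries at 8.98 ± 1.38 CPM per kb, and in vehicle it lay within the spread of TPM2 at 109 ± 12.1. In microRNA libraries TPM2 ranked 3, CKB 4 and CHRND 5. MYL4 went from rank 19 to 36 of 46 and MYOZ2 from 33 to 17. The exon lengths join all annotated isoforms, so a gene with many of them, such as TTN, is understated.

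**Figure D4:**
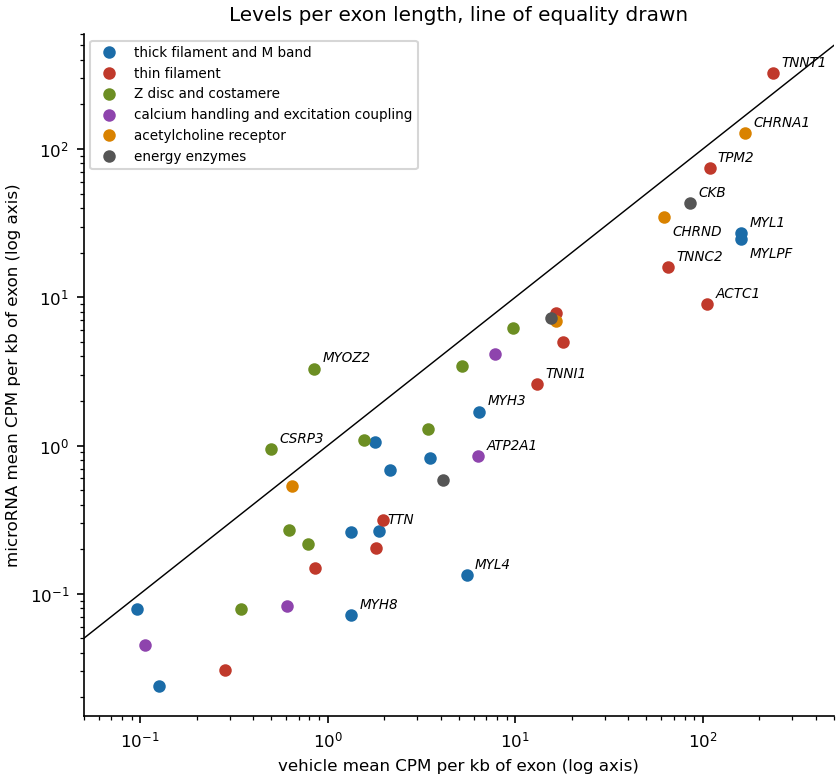
Mean CPM per kilobase of exon in vehicle (x axis) and microRNA libraries (y axis), both on log axes, one point per member with counts in both groups, coloured by role, with the line of equality. TNNT1, MYOZ2 and CSRP3 lie above the line, and ACTC1, MYL1 and MYLPF lie far below CHRNA1 although their vehicle levels are of the same order.

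Words that pair with the seeds of the transfected microRNAs were counted in the 3′ UTRs of these genes. The 7-base word that pairs with the miR-449a seed, CACTGCC, is in the longest annotated 3′ UTR of 4 of the 29 tested members (13.8%) and of 19.9% of all tested genes with such a UTR. The word for miR-340-5p, CTTTATA, is in 3 of 29 (10.3%) against 20.2%. Member 3′ UTRs are short, with a median of 716 bases against 1718 over all tested genes, and the shares were not adjusted for length. Of the 6 tested members with either word, 5 fell and 1 did not pass, with a median log2 fold change of -1.32. Of the 23 with neither, 21 fell and 2 rose, with a median of -1.40. Over all tested genes the medians were -0.03 with either word and 0.05 with neither. Among members under the count minimum, XIRP1, CAV3 and ACTN3 also hold the miR-449a word, and their sites are not shown. Over all 46 members, 7 hold the miR-449a word (15.2%) and 3 the miR-340-5p word (6.52%). The words found in tested members that fell are shown in capitals with their surroundings (GRCh38, GENCODE 29). These are among the places where the transfected seeds could pair.
ACTC1 (chr15:34790258-34790264, minus strand, miR-340-5p): aatatttattgCTTTATAaataaaccaga
ACTC1 (chr15:34788990-34788996, minus strand, miR-340-5p): aatctttctaaCTTTATAgtttatcaagg
MYL4 (chr17:47223602-47223608, plus strand, miR-449a): tatcaccacacCACTGCCccaaggacctt
UNC45B (chr17:35188856-35188862, plus strand, miR-449a): cctttgtttccCACTGCCtaggttacata
UNC45B (chr17:35186886-35186892, plus strand, miR-340-5p): aggttgaagttCTTTATAttttggaaaat
RYR1 (chr19:38529037-38529043, plus strand, miR-449a): cacttcagccgCACTGCCctgacggaaaa
MYPN (chr10:68211782-68211788, plus strand, miR-449a): accagtccaaaCACTGCCctgggaatgct

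UNC45B is the only tested member with a word for both microRNAs. An A follows the word, as in the stronger 8-base form of a site, only at the first ACTC1 site. LDB3, which did not pass, holds a miR-340-5p word. Whether any of these words is bound was not measured.

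Words known from muscle promoters were more frequent in the members' promoters than in all promoters. The 250 bases before the start of transcription were taken from RefSeq (GRCh38.p14), where 32 of the 46 members have 39 windows, and both strands were searched. The word CAGCTG, an E-box of the kind MYOD1 binds, is in 33.3% of member windows and 14% of all 35116 windows. The general E-box CANNTG is in 76.9% and 61.8%, and the word TATAAA in 25.6% and 10.7%. The MEF2 motif is in 28.2% of member windows and 1.75% of all, and in 3 member windows it overlaps TATAAA. Of the 21 tested members with a window, 7 have CAGCTG and 6 the MEF2 motif. A match is a description of the letters and not a bound site. Shown are the windows of both genes that rose, of TNNT2 as the relative of TNNT1 that fell, and of MYH8, which fell most among the heavy chains, with the CAGCTG word, the TATA word and the MEF2 motif in capitals.
TNNT1 (chr19:55149207-55149456, minus strand): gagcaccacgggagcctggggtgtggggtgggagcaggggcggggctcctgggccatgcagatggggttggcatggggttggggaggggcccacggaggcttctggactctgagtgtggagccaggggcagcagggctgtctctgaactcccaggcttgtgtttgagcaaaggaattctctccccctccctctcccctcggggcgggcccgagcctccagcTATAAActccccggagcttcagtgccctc
TNNT2 (chr1:201377681-201377930, minus strand): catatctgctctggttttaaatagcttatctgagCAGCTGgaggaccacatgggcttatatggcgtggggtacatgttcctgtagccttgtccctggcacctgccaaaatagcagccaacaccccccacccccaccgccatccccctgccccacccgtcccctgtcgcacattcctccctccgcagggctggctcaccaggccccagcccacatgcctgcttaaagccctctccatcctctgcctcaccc
MYOZ2 (chr4:119135582-119135831, plus strand): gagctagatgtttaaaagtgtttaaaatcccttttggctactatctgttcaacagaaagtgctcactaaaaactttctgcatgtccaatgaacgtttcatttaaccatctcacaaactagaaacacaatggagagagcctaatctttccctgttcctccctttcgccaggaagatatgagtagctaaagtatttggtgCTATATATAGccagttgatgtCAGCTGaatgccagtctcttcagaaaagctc
MYH8 (chr17:10421951-10422200, minus strand): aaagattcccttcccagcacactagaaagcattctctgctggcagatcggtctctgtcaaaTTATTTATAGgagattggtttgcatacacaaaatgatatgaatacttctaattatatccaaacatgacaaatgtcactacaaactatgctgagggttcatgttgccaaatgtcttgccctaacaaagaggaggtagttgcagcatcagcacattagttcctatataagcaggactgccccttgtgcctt

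The MYOZ2 window holds both a CAGCTG word and a MEF2 match and its gene rose, while the TNNT2 window holds a CAGCTG word and its gene fell. The MEF2 match of MYH8 is one of those that overlap TATAAA.

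Other muscle genes, from a list of 72 outside the members, moved in both directions but fell more often than they rose. Of 39 tested, 25 fell, 7 rose and 7 missed the threshold, against 34.0% called lower and 33.4% called higher over all tested genes. Their median was -0.61. SMYD1, a methyltransferase that supports myosin assembly, fell 5.09-fold, from 34.3 to 6.98 CPM. SYNPO2L, a Z-disc actin-binding gene, fell 4.44-fold, FITM1, a lipid-droplet gene of muscle, 6.24-fold, and KLHL41, which stabilises the sarcomere, 1.87-fold. ASB5, a muscle-enriched ubiquitin ligase adaptor, rose 7.10-fold, from 18.5 to 126.9 CPM (adjusted p = 2.69e-31, edgeR). Among the regulators of these genes, MYOG fell 13.8-fold, MEF2C 2.51-fold and MYOD1 1.88-fold. MYOG reached the count minimum only through vehicle libraries, with a microRNA mean of 0.646 CPM, so its call is no independent support. MEF2A and MEF2D did not pass (adjusted p = 0.955 and 0.190). The 10 genes just named kept their call in the 15 alternative fits.

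Relatives of the members that are also expressed outside skeletal muscle did not move in 1 direction. Some of them, such as TPM1, TPM3 and ATP2A2, also have isoforms in slow muscle or heart. Of 23 tested, 12 fell, 8 rose and 3 missed the threshold, where 34.0% of all tested genes were called lower and 33.4% higher. ACTB, cytoplasmic beta-actin, fell 2.62-fold, from 1011 ± 71.2 to 386 ± 100 CPM (SD, n = 4, adjusted p = 0.000449, edgeR). The relatives summed to 6398 to 6696 CPM in vehicle and 4559 to 4717 CPM in microRNA libraries. Their median was -0.16. With library size as the only scaling, 9 fell and 10 rose, with a median of -0.02. ACTG1, cytoplasmic gamma-actin, fell 3.87-fold, less than ACTC1, and ENO1, the ubiquitous enolase, 2.36-fold, close to ENO3. Both have processed pseudogenes, so these values are uncertain. TPM1 fell 1.89-fold and ACTN4 1.39-fold, while MYL6, the non-muscle essential light chain, rose 1.5-fold and the calcium channel gene ITPR3 3.35-fold. ACTN1, relative of ACTN2, and TPM3, relative of TPM2, did not pass (adjusted p = 0.982 and 0.385), although TPM3 passed as higher with library size as the only scaling (log2 fold change 0.19, adjusted p = 0.00498). Differences between a member and its relative were not tested.

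**Figure D5:**
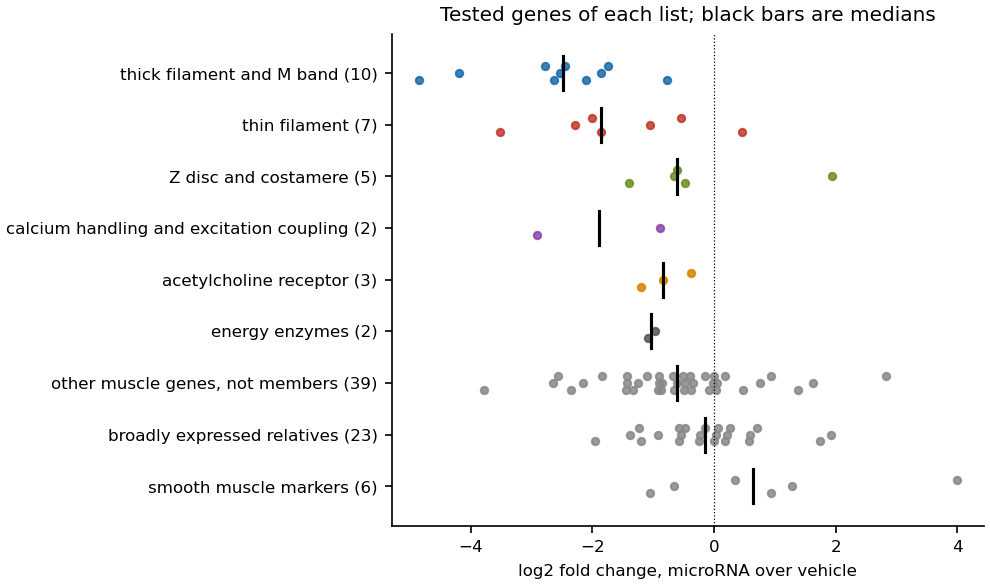
Log2 fold changes (x axis) of the tested genes of each list, with the number tested in brackets and a black bar at the median. The thick-filament genes lie furthest below 0 as a group, with a median of -2.49, and the broadly expressed relatives spread around 0. The thick-filament median includes MYL4, MYH8, MYBPC2 and MYBPH, which were tested only because of their vehicle levels.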

How the data were processed

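A kit for stranded mRNA libraries was used, per the labels' protocols. The authors deposited a table of unnormalized counts with a row for each symbol, whose columns were matched to samples by library code. Alignment and counting tools in the submitters' processing notes are HTSeq 0.5.3p3, TopHat2 2.0.13 and SAMtools 0.1.19.24, beside DESeq2 and the build GRCh38. Which annotation and strand setting were used is not given in the sources used here, and overlapping genes may share reads.

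The edgeR filter filterByExpr (minimum count 10, total 15) kept 12366 genes, which hold 99.5% of counts. After TMM scaling, edgeR 4.0.16 (R 4.3.3) tested each gene (robust quasi-likelihood, group as the only term, two-sided, Benjamini-Hochberg over all tested genes, threshold 0.05). SEs are the size of the log2 fold change over the square root of F. CPM uses the TMM-scaled library. Alternatives used DESeq2 1.42.0, limma-voom 3.58.1, other scalings, filters and thresholds, a replicate block and leaving out each library. The tests were tried on simulated counts first. Members under the minimum were summed per group, with an exact 95% interval for counting error only. Nothing in the labels ties replicates to separate cultures, so p-values measure the spread between these libraries, which may be technical. Replicate pairs of a group differed by a chi-square per gene of at least 2.21, where sampling noise gives about 1, so each counted as 1 library.

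The members, lists and tests were chosen with earlier results of these data known. Per-library values are given for members averaging at least 5 CPM with the 4 smallest adjusted p of each role and for those of at least 5 CPM that rose or did not pass. From the 2 lists outside the members, up to 6 genes of at least 5 CPM with the smallest adjusted p are named, plus MYOD1, MYOG and MEF2C. Other genes named from lists, and the shares, were chosen after their values were seen.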

Additional observations from a re-analysis of the deposited data

Results flagged for a closer look

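MYOM2, the M-band gene with the smallest fall of the thick-filament role, had 1 vehicle library away from the others. Vehicle library 1 measured 14.6 CPM, and the other vehicle libraries lay between 11.8 and 12.1 CPM, so the gap was 88.7% of the range. Of 58 groups of 4 libraries checked over the 29 tested members, this was the 1 that stood out, where chance gives about 1 in 20.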

How the results depend on the processing

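All 26 falls and both rises kept direction and call in 15 alternative fits. Of 435 gene-by-fit comparisons, 432 kept the call, and the other 3 are those of LDB3. With library size as the only scaling the median of all genes moved by 0.138 log2 units and calls split into 4890 higher and 3453 lower, with 26 members still lower. Without a count filter, 46 members were tested, 34 fell and 2 rose, with 5 falls in the Z-disc role. Over all 22808 genes of that fit, 4386 were called lower and 4679 higher. Requiring at least 2-fold left 1 rise in all, 0 rises in the thin filament, and 1 fall each in the Z-disc, calcium-handling, receptor and energy roles. The MYL4 to MYL1 difference was -1.23 with 0.5 CPM added and turned to 0.20 with 2 CPM (exact permutation, adjusted p = 0.457), an alternative that damps genes under 2 CPM. With the 8-base form of the word, 0 members held a miR-449a match and 1 a miR-340-5p match. Over all tested genes with a 3′ UTR these forms were also less frequent, at 6.76% and 8.30%. In the labels, same-numbered libraries of the 2 groups share only a number, and whether they share a batch was not tested. Their deviations correlated by 0.0135 to 0.0555, and 3 of 4 vehicle libraries correlated best with their own number. Among the tested members, number 1 was most often the highest and number 4 most often the lowest in both groups. With the replicate block, 26 members fell and 2 rose. Depth limits the 17 members under the count minimum, where ratios rest on as few as 2 counts. Leaving out each library for these members was added after seeing the data.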
